A study of Danio rerio with 6 samples.

Results

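Insulin-like growth factors (IGFs), their receptors and their binding proteins were followed in the injured adult zebrafish telencephalon through 10 genes: the ligands *igf1*, *igf2a* and *igf2b*, the receptors *igf1ra* and *igf1rb*, and the binding proteins *igfbp1a*, *igfbp2a*, *igfbp3*, *igfbp5b* and *igfbp7*. They were chosen by name among the 32520 genes of the count files, and 11 genes of the files stand for them. The name tables match *igf1*, *igf2a*, *igf2b*, *igfbp1a*, *igfbp3* and *igfbp7* to a single gene each, and *igfbp5b* (ENSDARG00000025348) is the gene of the shared name IGFBP5 that remains once the study's tables name ENSDARG00000039264 as *igfbp5a*. RefSeq synonyms show the letters of this pair swapped in older names, so the names *igfbp5a* and *igfbp5b* stand here for these identifiers. Both receptor genes carry the same symbol, IGF1R, so they are given by identifier, with no statement on which is *igf1ra*. The symbol IGFBP2 also belongs to a pair of genes, of which 1 is *igfbp2a*, and both are described.

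One hemisphere of each telencephalon was lesioned with a syringe needle, and RNA was taken at 5 days post lesion (dpl), with the uninjured hemisphere as control. The groups are 3 injured and 3 control hemispheres, each sequenced as a polyA+ library of its own, and the lesion is the only difference between them that the labels give. The control is thus the opposite side of a wounded brain and not the brain of an untouched fish, and the sources used here give no strain, sex or exact age. Between 63200617 and 91663196 reads fell on genes in injured, against 59675791 to 84610201 in control libraries. Of these, injured replicates 1 and 3 stood apart by transcripts of the pineal organ and photoreceptors, with a sum over 11 markers of 224 and 519.5 CPM, against 8.97 CPM in injured replicate 2 and 8.04 to 10.5 CPM in control libraries. The habenula markers *gng8* and *pou4f1* were at 3.84 and 2.03 CPM in injured replicate 1, against at most 0.204 and 0.0960 CPM in any other library. The sum over 8 habenula markers did not set that library apart, at 253 to 285 CPM in injured and 276 to 302 CPM in control libraries. CPM are read counts divided by the TMM-scaled size of the library, which makes the libraries comparable with each other.

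IGFs are small secreted proteins related to insulin. They bind the IGF receptor, a tyrosine kinase of the insulin receptor family, which passes the signal through Irs adaptor proteins to PI3K, Akt and mTOR and thereby promotes growth, survival and proliferation of cells. Binding proteins (IGFBPs) hold most IGF outside cells, where they keep it from the receptor, carry it or release it after cleavage by proteases. In the mammalian brain, IGF signalling is known for supporting neurons, neural progenitors and myelinating oligodendrocytes. Zebrafish carry several of these genes as a and b copies left from the genome duplication of teleosts.

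After injury, 2 of the 11 genes rose and none fell in the test of condition alone. They were the ligand *igf2a* and the binding protein *igfbp1a*, with fold changes of 1.24 and 1.27. The raw counts entered edgeR's quasi-likelihood test. Its *p*-value, adjusted after Benjamini and Hochberg over all 22558 genes tested, is called adjp, and a gene is said to be called, to rise or to fall where adjp is below 0.05. All 11 genes were among those tested, and at an unadjusted *p* below 0.05 edgeR gave 5 higher and 0 lower, against 18.6% and 12% of all genes tested. The DESeq2 Wald test called 4 higher and 0 lower, against 14.2% and 9.16% of the genes it tested. The 2 higher genes are 18.2% of the 11, while 16.5% of all genes tested were called, 11.6% higher and 4.82% lower. The injured and control values of 5 genes did not overlap, with the injured side higher in 4 and lower in 1, against 20.3% and 15.5%, or 35.8% in either direction, of all genes tested. The log2 fold change (log2FC) is that of injured over control hemispheres, and its SE comes from the fit. Its median over the 11 genes was 0.23, with a range from -0.24 for the receptor ENSDARG00000034434 to 0.45 for *igfbp7*, and the median over all genes tested was -0.0038. In these bulk libraries, fewer or more cells of a type and less or more RNA per cell cannot be told apart.

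Same-numbered injured and control libraries deviated together from their group means, and they are called pairs here. The labels do not state that libraries of the same number come from the same fish. What the libraries of a number share was not tested. When the edgeR model took the pair into account through a replicate block, 4 of the 11 genes rose and 2 fell. Here *igfbp7* and IGFBP2 (ENSDARG00000031422) joined *igf2a* and *igfbp1a*, and both IGF1R genes were called lower. In that model 36.1% of all genes tested were called, 19.9% higher and 16.2% lower, so the 4 and 2 of 11 genes stand against a larger background.

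**Figure D1:**
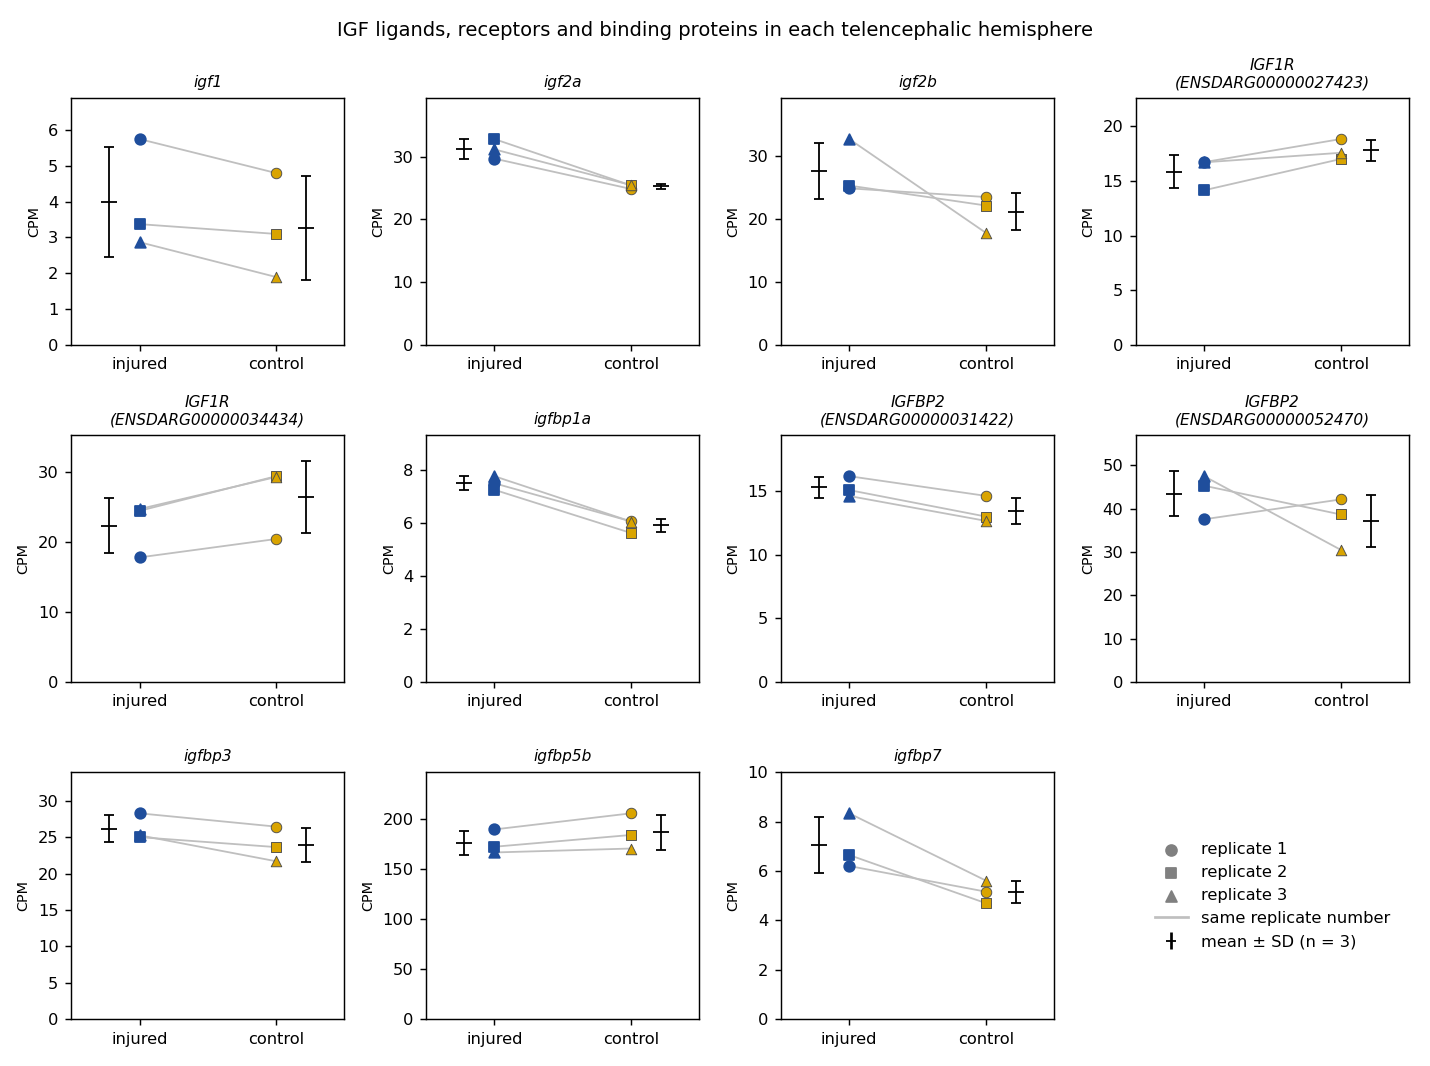
Expression of the 11 genes in CPM (TMM-scaled, linear axes from 0) in each injured and control hemisphere. Symbols mark the replicate number, grey lines join libraries of the same number, and bars show the mean ± SD (n = 3). Injured libraries lie above all control libraries for *igf2a*, *igf2b*, *igfbp1a* and *igfbp7*, and below them for IGF1R (ENSDARG00000027423), while *igf1* differs more between numbers than between sides.

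Among the ligands, *igf2a* (ENSDARG00000018643) encodes one of the zebrafish IGF2 proteins, which in mammals are best known as growth factors of the embryo. It was at 29.7, 32.8 and 31.2 CPM in injured replicates 1, 2 and 3, against 24.9, 25.4 and 25.5 CPM in control replicates 1, 2 and 3. Every injured library was above every control library, and the control hemispheres spanned less than 1 CPM. Their coefficient of variation of 1.35% was below the 2.36% that counting error alone gives. The means were 31.2 ± 1.56 CPM in injured and 25.3 ± 0.342 CPM in control hemispheres (SD, n = 3 each), a log2FC of 0.31 (SE 0.055, adjp = 0.0114). The increase was present in all 3 pairs, at 0.26, 0.37 and 0.29 on the log2 scale. The call did not rest on the pairing, but adjp was 0.0529 without control replicate 1. In the DESeq2 Wald test *igf2a* was called after Benjamini-Hochberg adjustment (adjusted *p*-value 0.000285). It was not called in that test after Bonferroni adjustment (adjusted *p*-value 0.501), the adjustment that the study states.

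Its paralogue *igf2b* (ENSDARG00000033307) was at 24.8, 25.3 and 32.6 CPM in injured replicates 1, 2 and 3, against 23.4, 22.1 and 17.7 CPM in control replicates 1, 2 and 3. The groups did not overlap here either, yet replicate 3 held both the highest injured and the lowest control value. The log2FC was 0.39 (SE 0.14, adjp = 0.106), with a 95% confidence interval from 0.061 to 0.71, and *igf2b* was not called. Within pairs the differences were 0.08, 0.19 and 0.88. Without injured replicate 3 the log2FC was 0.25, and without control replicate 3 it was 0.27. The DESeq2 Wald test gave *igf2b* an adjusted *p*-value of 0.0376.

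The point estimate of *igf2b* was thus larger than that of *igf2a*, and its error larger still. The log2 ratio of *igf2b* to *igf2a* counts within a library, which does not depend on scaling, averaged -0.19 ± 0.23 in injured and -0.27 ± 0.23 in control hemispheres (SD, n = 3 each). The difference of 0.08 was within this spread (exact two-sided permutation test, p = 0.8). With 3 libraries against 3, this test cannot go below 0.1.

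Transcripts of *igf1* (ENSDARG00000094132), which in mammals mediates much of the action of growth hormone and in the brain is also made by microglia, gave 146 to 487 reads in a library. They were at 5.75, 3.37 and 2.87 CPM in injured replicates 1, 2 and 3, against 4.80, 3.10 and 1.89 CPM in control replicates 1, 2 and 3. On both sides replicate 1 was highest and replicate 3 lowest, and the groups overlapped widely. Its log2FC was 0.30 (SE 0.38, adjp = 0.657), and its 95% confidence interval ran from -0.58 to 1.18. Within pairs the injured side was higher each time, by 0.26, 0.12 and 0.60 on the log2 scale. With the replicate block the SE of *igf1* was 0.11 and its adjusted *p*-value 0.0735, still above the threshold. Without injured replicate 1, and with no block, the log2FC was -0.062. The annotated span of *igf1* overlaps that of *nup37*, a gene of the nuclear pore, in RefSeq.

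The receptor genes had lower point estimates in injured hemispheres. IGF1R (ENSDARG00000027423) was at 16.7, 14.1 and 16.7 CPM in injured replicates 1, 2 and 3, against 18.8, 17.0 and 17.6 CPM in control replicates 1, 2 and 3. The highest injured value was just below the lowest control value. For this gene the log2FC was -0.17 (SE 0.085, adjp = 0.235), and with the replicate block it was -0.17 (SE 0.053, adjusted *p*-value 0.0437 in edgeR). Without injured replicate 2 it was -0.09.

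IGF1R (ENSDARG00000034434) was at 17.8, 24.5 and 24.7 CPM in injured replicates 1, 2 and 3, against 20.4, 29.4 and 29.3 CPM in control replicates 1, 2 and 3. Replicate 1 was low on both sides, and the groups overlapped. Without the pairing, the log2FC of -0.24 had an SE of 0.18 and an adjp of 0.409. The within-pair differences were almost alike, at -0.20, -0.27 and -0.25, and with the block the log2FC was -0.24 (SE 0.040, adjusted *p*-value 0.00453 in edgeR). Without the block it moved to -0.11 when injured replicate 1 was left out.

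The log2 ratio of ENSDARG00000034434 to ENSDARG00000027423 was 0.09, 0.79 and 0.57 in injured replicates 1, 2 and 3, against 0.12, 0.79 and 0.74 in control replicates 1, 2 and 3. The balance between the receptor copies differed between replicate 1 and the other numbers on both sides. The difference between injured and control hemispheres was -0.07 (exact permutation p = 0.7). Within pairs the injured minus control ratios were -0.03, -0.00038 and -0.17, with hardly a difference in pair 2, and the exact paired test gave p = 0.25, the smallest that 3 pairs allow.

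**Figure D2:**
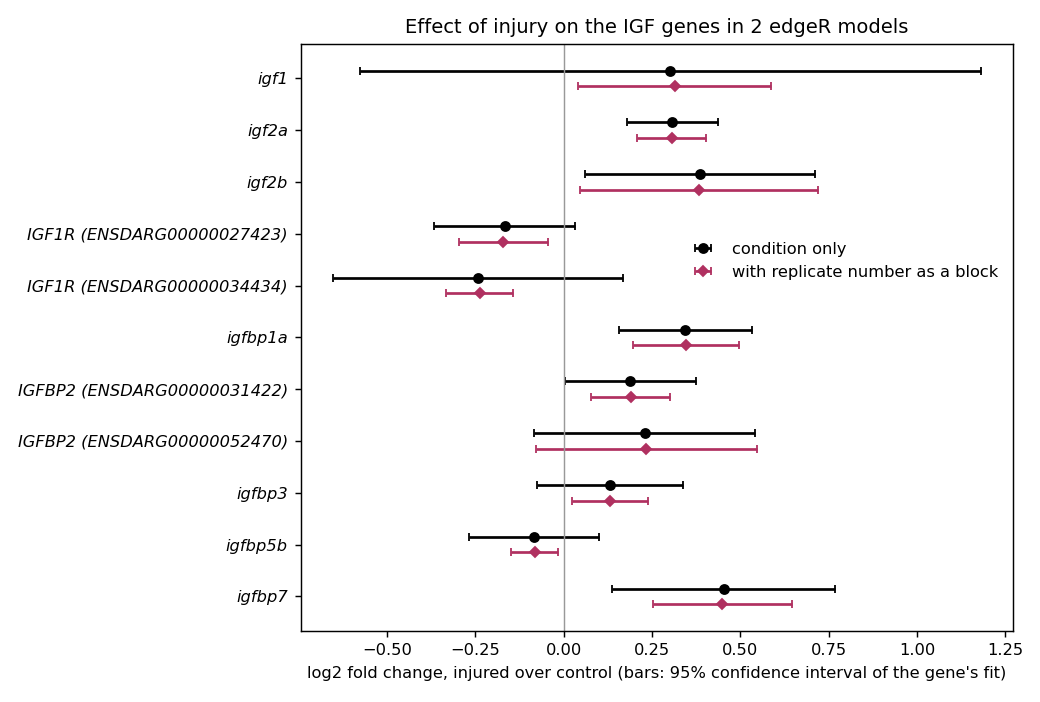
Log2FC of injured over control hemispheres for the 11 genes, in the edgeR model of condition only (black circles) and in the model with replicate number as a block (red diamonds). Bars are 95% confidence intervals of the fit of each gene, not corrected for the number of genes. The estimates are nearly the same in both models. The intervals of *igf1*, IGF1R (ENSDARG00000034434) and *igfbp5b* are much shorter with the block. Most others are shorter too, but not those of *igf2b* and IGFBP2 (ENSDARG00000052470).

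Of the binding proteins, *igfbp1a* (ENSDARG00000099351) was called higher. IGFBP1 is known in mammals as a liver protein that is induced by fasting, and in zebrafish embryos as a hypoxia-induced inhibitor of growth. The gene was at 7.51, 7.26 and 7.78 CPM in injured replicates 1, 2 and 3, against 6.07, 5.63 and 6.06 CPM in control replicates 1, 2 and 3. The lowest injured library lay above the highest control library, and each group spanned a narrow range. The means were 7.52 ± 0.257 CPM in injured and 5.92 ± 0.252 CPM in control hemispheres (SD, n = 3 each), a log2FC of 0.34 (SE 0.080, adjp = 0.0280). The 3 pairs differed by 0.31, 0.37 and 0.36 on the log2 scale.

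The size of this increase was stable, while its call was lost with any library left out and with Bonferroni adjustment. Leaving out 1 library at a time, its log2FC stayed between 0.31 and 0.36. In these 6 fits adjp was 0.0638 to 0.0979, and the gene was not called in any of them. Calls over all genes also fell there, to 1797 to 3017, from 3715 with all libraries. In edgeR with the replicate block its adjusted *p*-value was 0.00617, and the DESeq2 Wald test gave 0.0129. Behind these values stand 354 to 681 reads in a library. The spread between libraries, with a coefficient of variation of 3.42% in injured and 4.25% in control hemispheres, was in both groups below what counting error alone gives at these reads, which was 4.86% in control hemispheres. The study's tables list a match to the sterol regulatory element, a binding motif of Srebf transcription factors, in the promoter of *igfbp1a*. The study searched only promoters of genes that it had itself called changed by injury, so genes outside that set were not searched. The match is printed because it is the only sequence found for these genes in the sources used here, with all its letters in capitals.
*igfbp1a* element: ATGAGGTGAG
This match is a description of the letters and says nothing on whether a factor binds there.

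In the RefSeq table of the GRCz12tu assembly, *igfbp1a* lies next to *igfbp3* with no protein-coding gene between them, and the gene *dsg2.2* overlaps both. By the names of that table, *igf1ra* overlaps 3 genes and *igfbp5b* overlaps 1. Whether counting used the strand is not given in the sources used here, and in union mode reads that fall on more than 1 gene are left out, so the counts of overlapping genes may lack part of their reads. IGFBP3, the main IGF carrier in mammalian serum, did not share the increase at the threshold. The zebrafish gene *igfbp3* (ENSDARG00000099144) was at 28.3, 25.0 and 25.3 CPM in injured replicates 1, 2 and 3, against 26.5, 23.6 and 21.7 CPM in control replicates 1, 2 and 3. The groups overlapped, and the log2FC was 0.13 (SE 0.088, adjp = 0.372), with a 95% confidence interval from -0.07 to 0.34. All 3 pairs were higher on the injured side, by 0.10, 0.08 and 0.22. With the replicate block the SE of *igfbp3* was 0.045 and its adjusted *p*-value 0.0604 in edgeR, still above the threshold. Whether the changes of the neighbouring genes differ was not tested.

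The gene *igfbp7* (ENSDARG00000104138) encodes a binding protein with low affinity for IGFs, known in mammals from the matrix of blood vessels. It was at 6.20, 6.65 and 8.34 CPM in injured replicates 1, 2 and 3, against 5.16, 4.69 and 5.61 CPM in control replicates 1, 2 and 3. All injured libraries were above all control libraries. The log2FC of 0.45 was the highest point estimate among the 11 genes, and it narrowly missed the threshold (SE 0.13, adjp = 0.0618). With the replicate block *igfbp7* was called, with a log2FC of 0.45 (SE 0.083, adjusted *p*-value 0.00646 in edgeR), and the DESeq2 Wald test gave 0.0234. It was 0.32 on the log2 scale without injured replicate 3, and adjp was 0.0549 to 0.168 over the 6 fits that leave out 1 library.

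The IGFBP2 genes encode a binding protein that in mammals is abundant in the brain and cerebrospinal fluid. IGFBP2 (ENSDARG00000031422) was at 16.2, 15.1 and 14.6 CPM in injured replicates 1, 2 and 3, against 14.6, 13.0 and 12.7 CPM in control replicates 1, 2 and 3. The groups overlapped narrowly, at the lowest injured and the highest control library. This gave a log2FC of 0.19 (SE 0.079, adjp = 0.157), and with the block it was 0.19 (SE 0.047, adjusted *p*-value 0.0203 in edgeR). Its pairs were close to each other, at 0.15, 0.21 and 0.21.

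IGFBP2 (ENSDARG00000052470) behaved less evenly, at 37.6, 45.3 and 47.5 CPM in injured replicates 1, 2 and 3, against 42.1, 38.7 and 30.5 CPM in control replicates 1, 2 and 3. The injured side was lower in pair 1 and higher in the others, at -0.17, 0.23 and 0.64. Its log2FC was 0.23 (SE 0.13, adjp = 0.301), and with the block its adjusted *p*-value was 0.216 in edgeR. It was 0.10 without control replicate 3. Since *igfbp2a* is 1 of these genes, it was not called in the test of condition alone whichever it is, and with the block its call depends on the assignment.

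More reads came from *igfbp5b* than from any other of the 11 genes, with 10726 to 16116 in a library. Transcript lengths were not used here, so levels are not compared between genes. IGFBP5 binds to extracellular matrix and is among the most conserved of the binding proteins. Expression of *igfbp5b* was 189, 172 and 166 CPM in injured replicates 1, 2 and 3, against 205, 184 and 170.1 CPM in control replicates 1, 2 and 3. The groups overlapped, although the injured side was lower in each pair. The log2FC was -0.08 (SE 0.078, adjp = 0.537), and its 95% confidence interval from -0.27 to 0.10 held 0. With the block the interval ran from -0.149 to -0.015, and the adjusted *p*-value of *igfbp5b* was 0.0604 in edgeR.

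Its paralogue *igfbp5a* (ENSDARG00000039264) was outside the chosen 10 and was the one gene called lower among 8 further tested genes of the family. It was at 31.7, 28.9 and 27.9 CPM in injured replicates 1, 2 and 3, against 41.7, 34.8 and 36.7 CPM in control replicates 1, 2 and 3. It had a log2FC of -0.36 (SE 0.082, adjp = 0.0273). The log2 ratio of *igfbp5b* to *igfbp5a* counts was 2.58, 2.57 and 2.57 in injured replicates 1, 2 and 3, against 2.30, 2.40 and 2.21 in control replicates 1, 2 and 3. All injured hemispheres thus had a higher share of *igfbp5b*, with a difference of 0.27 (exact two-sided permutation test, p = 0.1, the smallest it can give). This ratio was computed after the values had been seen, and over the 4 ratios of paralogues examined its Benjamini-Hochberg adjusted *p*-value in the exact test was 0.4. The ratios of the IGFBP2 copies overlapped between injured and control libraries (difference 0.05, exact permutation p = 0.7).

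**Figure D3:**
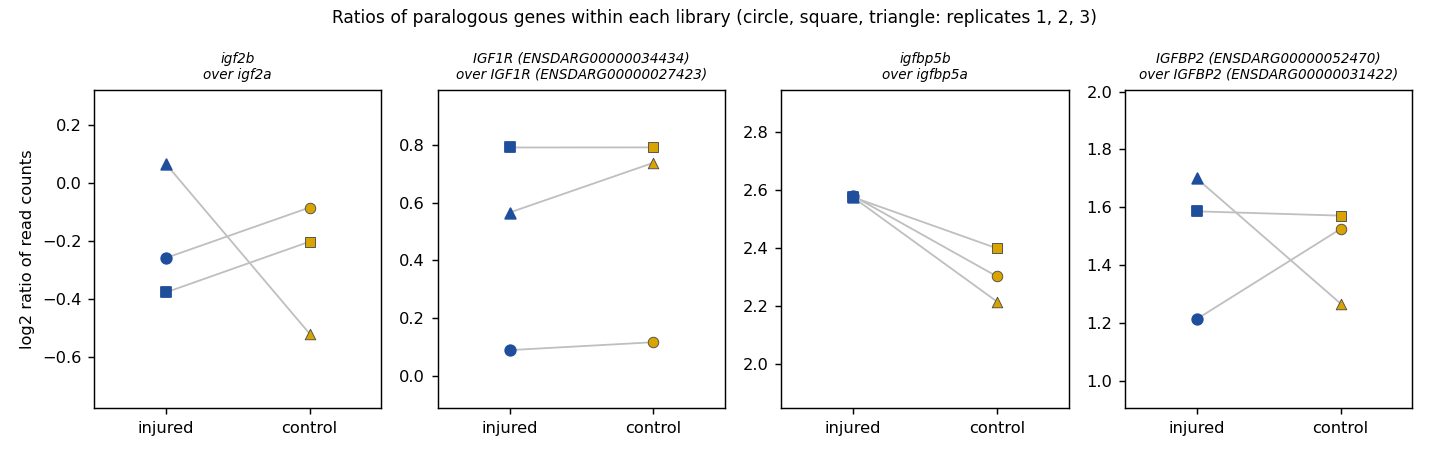
Log2 ratio of the read counts of paralogous genes within each library, for injured and control hemispheres, with lines joining libraries of the same number. All axes span the same distance. The ratio of *igfbp5b* to *igfbp5a* lies at 2.57 to 2.58 in injured and at 2.21 to 2.40 in control libraries, and the ratios of *igf2b* to *igf2a*, of the IGF1R copies and of the IGFBP2 copies overlap.

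The wider pathway was described with 82 further genes, of which 74 were matched to a gene and 70 tested. In the test of condition alone 8 of them rose and 1 fell, or 11.4% and 1.43%, against 11.6% and 4.82% of all genes tested. Their median log2FC was -0.02. With the replicate block 15 were called higher and 13 lower, where 19.9% of all genes tested were called higher and 16.2% lower. The share called higher without the block was thus close to that of all genes, and the count called lower was 4 with RLE and 3 with upper-quartile normalization.

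For the lists that follow, 11.6% of all genes tested were called higher and 4.82% lower in edgeR. At an unadjusted *p* below 0.05 the shares were 18.6% and 12%. They were 14.2% and 9.16% in DESeq2, and 19.9% and 16.2% with the block. Among adaptors below the receptor, 2 of 11 tested genes rose and 0 fell, also at an unadjusted *p* below 0.05 and in DESeq2, while the block called 2 higher and 1 lower. The genes that rose are named next. They were *irs1*, an insulin receptor substrate, at 25.3 ± 2.32 CPM in injured and 18.6 ± 1.88 CPM in control hemispheres (SD, n = 3 each, log2FC 0.44, adjp = 0.0234), and *grb14*, known in mammals as an inhibitor of the insulin receptor (log2FC 0.55, adjp = 0.0325). Of 24 tested genes of PI3K, Akt and mTOR, 2 rose and 0 fell, while 3 were higher and 5 lower at an unadjusted *p* below 0.05, DESeq2 called 2 higher and 3 lower, and the block 5 higher and 7 lower. The edgeR calls were the catalytic subunit *pik3cb*, at 36.3 ± 1.88 CPM in injured and 28.3 ± 1.84 CPM in control hemispheres (SD, n = 3 each, log2FC 0.36, adjp = 0.0124), and the kinase *akt1* (log2FC 0.43, adjp = 0.0161). One of 7 Foxo genes rose, FOXO1 (ENSDARG00000099555), whose product is held out of the nucleus by Akt, with a log2FC of 0.30 (adjp = 0.0252). In the Foxo list the block called 3 higher and 2 lower, and DESeq2 2 higher and 1 lower.

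Outside cells, 2 of 8 tested genes for proteases of binding proteins and their inhibitors rose and 0 fell, while DESeq2 called 3 higher and 1 lower, and 4 were higher and 1 lower both with the block and at an unadjusted *p* below 0.05. They were *adam9*, a membrane metalloprotease (log2FC 0.24, adjp = 0.0160), and HTRA1 (ENSDARG00000032831), a secreted serine protease, at 2.28 ± 0.126 CPM in injured and 1.46 ± 0.186 CPM in control hemispheres (SD, n = 3 each, log2FC 0.64, adjp = 0.0293). Of the 4 genes for IGF2 mRNA-binding proteins, *igf2bp1* rose by 0.42 on the log2 scale (adjp = 0.0480). Of 8 tested genes of the growth hormone axis 0 were called in edgeR and 0 in DESeq2, with 0 higher and 1 lower both at an unadjusted *p* below 0.05 and with the replicate block. In the remaining family, 1 of 8 tested genes, *igfbp5a*, fell, and the insulin receptors INSR (ENSDARG00000011948) and INSR (ENSDARG00000071524) had log2FC values of -0.10 and -0.03. No call among these 9 pathway genes held in all 6 fits with 1 library left out. Over all genes, these fits called 1419 to 2106 higher and 307 to 911 lower, against 2628 and 1087 with all libraries.

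**Figure D4:**
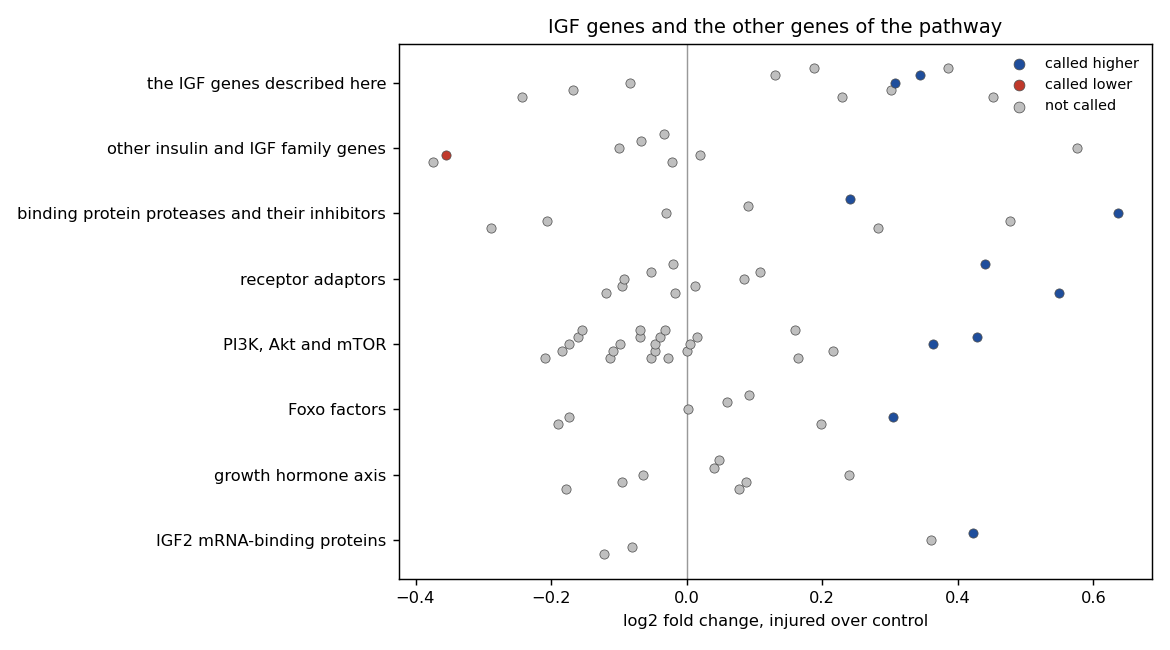
Log2FC of injured over control hemispheres for the 11 IGF genes and the 70 tested genes of the wider pathway, 1 point per gene. Blue points were called higher and the red point, *igfbp5a*, was called lower in edgeR at an adjp below 0.05. Vertical offsets within a row carry no value.

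Markers of several cell types moved with the injury beside these results. Their counts stand against 11.6% of all genes tested called higher and 4.82% called lower in the same edgeR test. Of the microglia and leukocyte markers, 13 of 13 tested rose, with a summed level of 1986.5 to 2429 CPM in injured, against 591 to 650.3 CPM in control libraries, while *lyz* had no read. Of the endothelial and mural cell markers, 10 of 14 and 6 of 11 rose, with 315 to 348 and 639 to 700.5 CPM in injured, against 229.7 to 238 and 442 to 474 CPM in control libraries. Single genes weigh heavily in such sums. In the mural sum *notch3* had means of 407 CPM in injured and 283 CPM in control hemispheres. Whether these *notch3* reads came from mural cells was not tested, so the mural sum is not read as a level of mural cells. In the microglia and leukocyte sum *apoeb* had means of 1363 CPM in injured and 259 CPM in control hemispheres. Of the meningeal and fibroblast markers 7 of 10 rose (396 to 522 CPM in injured, 168 to 242 CPM in control libraries), and of the radial glia markers 6 of 10 rose (3158 to 3562 CPM in injured, 2625 to 2745 CPM in control libraries). Of the proliferation markers 11 of 12 rose, and of the oligodendrocyte markers 6 of 10. Of 10 neuronal markers 5 fell, with 7789 to 8199 CPM in injured, against 8962 to 9052 CPM in control libraries. The part of such cells in the changes of *igf2a*, *igfbp1a*, *igfbp7* and the receptors was not tested.

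Without injured replicates 1 and 3, the libraries with pineal and photoreceptor transcripts, which leaves a single injured hemisphere assumed to vary like the controls, *igf2a* stayed called in edgeR, with a log2FC of 0.39 (adjp = 0.0399), while *igfbp1a* was at 0.30 (adjp = 0.238). For *igfbp7* and *igf2b* the log2FC values were then 0.38 and 0.27. The telencephalic gene *emx3*, singled out after its values were seen, was at 60.0 ± 6.05 CPM in injured, against 51.1 ± 1.75 CPM in control hemispheres (SD, n = 3 each). It was not called in the test of condition alone on all libraries. The other telencephalic genes sought, *eomesa*, *tbr1b*, *dlx2a* and *dlx5a*, were not found by name. The values of *emx3* alone do not measure how much telencephalic tissue a library holds.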

How the data were processed

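The authors aligned reads to GRCz11 with STAR and assigned them to genes with HTSeq (union mode). They deposited the raw counts, with no normalization, as 1 table per library. Tool versions, strand setting and annotation release are not given in the sources used here. Reads on no feature (27.2% to 29.7%) and on more than 1 gene (1.45% to 1.53%) were left out.

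Tests were run with edgeR 4.0.16 under R 4.3.3 (filterByExpr, TMM, glmQLFit and glmQLFTest), with injury as the only term of the model and a threshold of 0.05 after Benjamini-Hochberg adjustment. Log2 fold changes are injured over control. The SE is the absolute log2 fold change over the square root of F. Of 32520 identifiers, 29280 had a name in the Ensembl name table or the study's tables, and 206 of 237 list genes were matched. All 10 chosen genes are described, and of other lists the 3 called genes with the smallest *p* in each direction. The genes and lists were chosen with earlier results of these data known.

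Across genes, residuals of same-numbered injured and control libraries correlated at 0.519, 0.396 and 0.321, and those of others at -0.361 to -0.0832. The study took the opposite hemisphere as control, and replicate number was a block in an alternative. Other alternatives were RLE, upper-quartile or library-size scaling, DESeq2 1.42.0, other filters and libraries left out. The study states a DESeq2 Wald test with Bonferroni adjustment, which was among these alternatives. The edgeR test of condition alone was tried on simulated independent libraries, with planted changes larger than those of the IGF genes. Changes as small as theirs, the block, DESeq2 and the permutation tests were not simulated. No label states separate fish, so *p*-values measure the spread between these libraries. Over all genes counting error is below this spread (chi-square statistic between replicates 15.3 to 28.5 for each degree of freedom), but not for *igf2a* in control hemispheres or *igfbp1a* in both groups.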

Additional observations from a re-analysis of the deposited data

How the results depend on the processing

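Of the 11 IGF genes, 2 were called higher in the edgeR test of condition alone. This count was 4 with the DESeq2 Wald test, 0 with that test and Bonferroni adjustment, 4 with the replicate block, 0 to 1 with each library left out, and 1 without injured replicates 1 and 3, an alternative added after the data were seen. The number called lower was 0, but 2 with the replicate block, and the block changed no other call of these genes than those given above. Of 70 tested pathway genes, 8 were called higher, against 0 with DESeq2 and Bonferroni adjustment, 15 with the block, 0 to 5 with each library left out and 4 without injured replicates 1 and 3. The number called lower was 1, against 4 with RLE, 3 with upper-quartile normalization, 6 with DESeq2, 0 with DESeq2 and Bonferroni adjustment, 13 with the block, 0 to 3 with each library left out and 0 without injured replicates 1 and 3. The share of all genes called also grew with the block, to 19.9% higher and 16.2% lower, from 11.6% and 4.82%. Without the block, edgeR called 2628 of all genes higher and 1087 lower. With each library left out these counts were 1419 to 2106 and 307 to 911. With DESeq2 they were 3034 and 1957, and with DESeq2 and Bonferroni adjustment 1079 and 252. RLE gave 1274 lower over all genes, and upper-quartile normalization 1154. Library size alone added *igfbp7* (adjp = 0.0444). The sign changed for *igf1*, at -0.062 without injured replicate 1 in a range from -0.062 to 0.68 with each library left out, and for no other of the 11 genes. The fits that leave out 1 library had no block and kept the other library of the pair. Within pairs *igf1* was higher on the injured side each time. The cause of these dependences was not tested.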

Other observations

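The genes most like the called members over the 6 libraries were sought among 17965 genes with a mean of at least 1 CPM, by the root-mean-square difference of log2(CPM + 0.5) centred on each gene's mean. For *igf2a* they were *rpa2*, *slc49a4* and *pdia3*, at differences of 0.0133, 0.0203 and 0.0230. For *igfbp1a* they were BX640522.2, ENSDARG00000092671 and CU861477.1, at 0.0254, 0.0282 and 0.0327. These are descriptions over 6 libraries, and nothing on shared function or control is read from it.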
